A study of Mus musculus with 17 samples.

Results

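Ependymal cells of the mouse hypothalamus are the subject of these results. They were taken as every cell that the authors' deposited annotation names Ependy. The annotation holds 413 such cells, and 412 of them could be tied to 1 library and thus to 1 mouse, of 14276 annotated cells in all. The name came from the authors' own classification of the cells, so levels that set Ependy apart from other classes are given as a description, without a test.

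The study profiled dissected and dissociated hypothalamus by Drop-seq, a droplet method in which a bead captures the polyA RNA of 1 cell, tagging every molecule so that cells and single transcripts (UMIs, unique molecular identifiers) can be counted. The tested mice were 3 food-deprived animals, kept without food for 24 hours, and they were set against 5 normally fed animals. All were of the B6D2F1 background, from a C57BL6 female and a DBA2 male. No age or sex is given in the sources used here. The libraries fall into 5 batches, and batches 1 and 2 each hold 1 mouse of either group. The comparison asks how the cells of the fed hypothalamus differ from those of a fasted one, and here it is followed in 1 cell type.

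Ependymal cells line the brain ventricles, including the third ventricle that runs through the hypothalamus. Each carries a tuft of motile cilia that moves cerebrospinal fluid along the wall. A cilium of this kind is a ring of microtubule doublets on which dynein motors, radial spokes and a central pair drive bending, and it is built by intraflagellar transport on a basal body derived from a centriole. Foxj1 and the RFX factors switch on the genes of this machine. Tanycytes, a related cell type of the lower ventricular wall, send long processes into the hypothalamus and largely lack motile tufts.

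The mice contributed unequal numbers of these cells. Food-deprived replicates 1, 2 and 3 gave 64, 43 and 99 Ependy cells, and normal replicates 1 to 5 gave 13, 10, 34, 43 and 106. Normal replicates 1 and 2 fell under the minimum of 20 cells, so 6 mice entered the comparisons of expression. The median cell held 3506.5, 2771 and 2003 UMIs in food-deprived replicates 1 to 3, against 3457, 3553 and 1843.5 UMIs in normal replicates 3 to 5. Summed over cells, the food-deprived mice had 196062 to 377884 UMIs and these 3 normal mice 245961 to 321661 UMIs. The unit below is CPM, the counts of a gene scaled to 1000000 of a mouse's summed Ependy UMIs, and values of single mice are given in the order food-deprived replicates 1 to 3, then normal replicates 3 to 5.

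Normal replicate 3 stood apart from the other mice in 2 ways. In its cells 1 barcode held 142589 UMIs from 10040 genes, 44.3% of all Ependy UMIs of that mouse. The largest barcode of the other 5 mice with at least 20 cells held 4.13% to 12.3%. In normal replicates 1 and 2, with fewer cells, it held 24.9% and 16.1%. The large barcode of normal replicate 3 had an ependymal profile. Its 4 ependymal markers stood at 14990 CPM, against 14900 CPM in the other Ependy cells of the mouse. Levels of tanycyte markers (84.16 CPM) and astrocyte markers (105.2 CPM) were low. Also without this barcode, normal replicate 3 was at least 3 times above all 5 other mice in 4 genes and at least 3 times below them in 28 genes, of 2098 genes averaging 100 CPM or more. In the other mice the 2 counts were 0 and 0 to 6. The high genes included Hspb1, Ptn and Wls, which encode a small heat shock protein, a secreted growth factor and a Wnt secretion protein. Of the 28 low ones 18 encode ribosomal proteins and 1 is Ppia. These follow a split of the series' libraries by Gapdh, in which all libraries of normal replicate 3 lie on the low side (5.55 to 8.53 CPM of Gapdh over all cells). The other 9 include Sparcl1 (1911, 2152 and 2152 CPM in food-deprived mice, against 486, 1817 and 1470 CPM in normal mice, without the barcode), Nr2f1, Six3 and Slc1a3. Normal replicate 3 was also the one mouse with cells named SCO, the subcommissural organ, which were 32. Results are therefore given with and without the large barcode or the mouse.

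The label held against its markers. Ccdc153, a coiled-coil protein gene, averaged 4392 ± 194 CPM in Ependy (SD, n = 6 mice), against 55.94 ± 43.5 CPM in Tany and 8.2 ± 4.89 CPM in Astro (n = 6 each). Tmem212 averaged 3149 ± 400 CPM, against 39.64 ± 27.6 CPM in Tany. Rarres2, which encodes the secreted chemoattractant chemerin, averaged 4253 ± 855 CPM, against 386.8 ± 85.7 CPM in Tany. Foxj1, the transcription factor of motile cilia, averaged 1216 ± 146 CPM, against 267.5 ± 77.4 CPM in Tany, and 929 CPM in the SCO cells of 1 mouse. All 6 mice lay far above every mouse of every other class for the first 3 genes, while Foxj1 in the SCO cells came close to them.

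**Figure D1:**
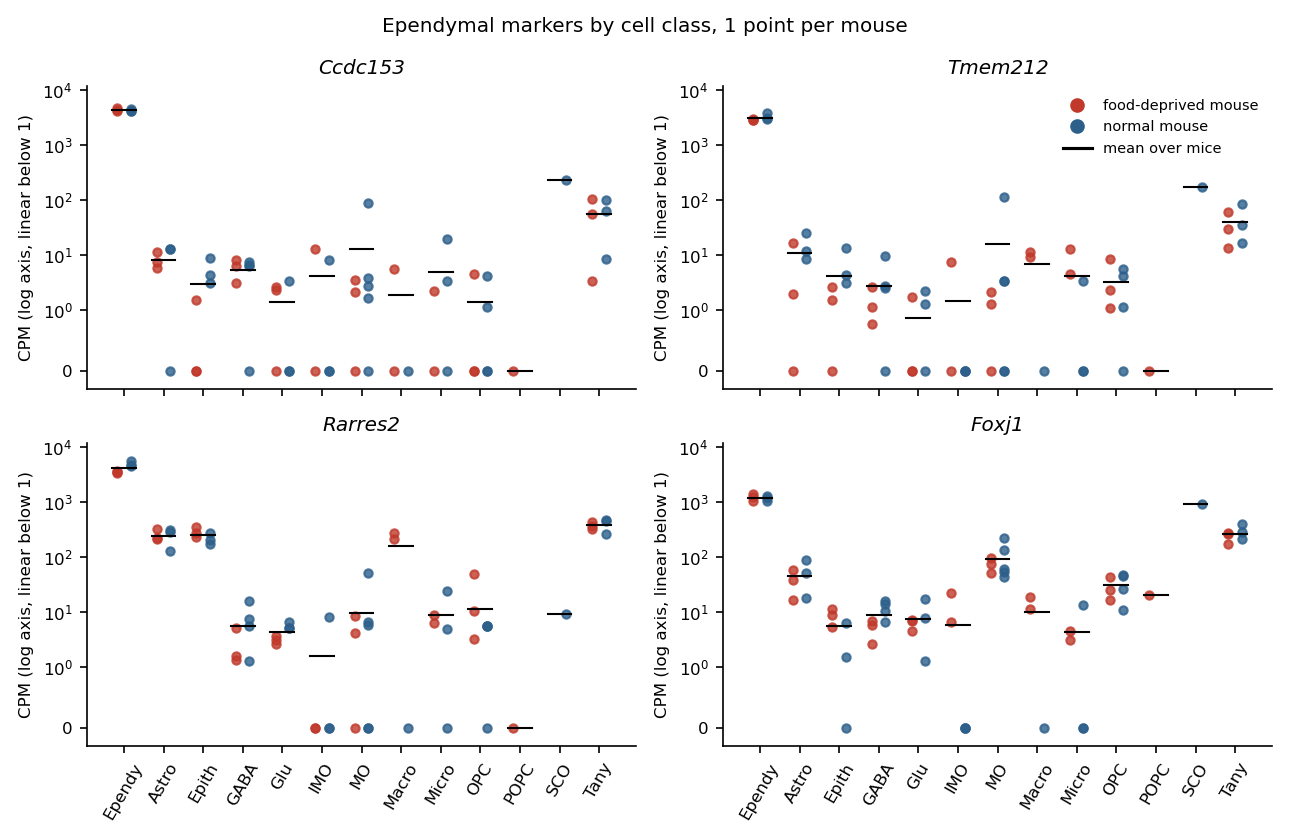
Level of the 4 ependymal markers in each cell class (x axis) in CPM (y axis, logarithmic above 1), with 1 point per mouse that had at least 20 cells of the class and a bar at the mean. Ependy points lie near 4392 CPM for Ccdc153, and the SCO point is the nearest other class for Foxj1.

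Nearly every cell carried the markers. Among 358 Ependy cells thinned to 1000 UMIs each, 95.3% had a Ccdc153 UMI, 94.4% a Tmem212 UMI, 94.4% a Rarres2 UMI and 71.8% a Foxj1 UMI. The 31 cells below that depth were left out, 4, 1 and 10 in food-deprived replicates 1 to 3 and 3, 3 and 10 in normal replicates 3 to 5. In MO, myelinating oligodendrocytes that should lack these genes, the shares were 0.283%, 0.251%, 0.628% and 6.75% of 3185 thinned cells. Unthinned, the 4 shares were 97.7%, 97.7%, 97.9% and 89.7% in Ependy, at a median of 2444 UMIs, and 0.671%, 0.554%, 1.46% and 13.7% in MO, at 2208.5 UMIs.

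Summed markers of most other cell types were low, while a myelin gene was found in many cells of some mice. The 8 tanycyte markers summed to 310.2 ± 115 CPM in Ependy against 3053 ± 439 CPM in Tany, and Rax, a tanycyte transcription factor, stood at 0.8821 ± 2.16 CPM. The 5 astrocyte markers summed to 263.6 ± 131 CPM against 10210 ± 2270 CPM in Astro. Of the 4 macrophage markers, Mrc1, Cd163 and F13a1 had no UMI, and the 4 precursor markers (OPC) summed to 9.533 CPM. The 7 myelin markers summed to 1164, 831.4 and 376.1 CPM in food-deprived mice and 547.2, 788.7 and 460.9 CPM in normal mice, where MO held 119100 ± 11700 CPM. Mbp, a myelin gene, was found in 15%, 21.4% and 3.37% of thinned Ependy cells in food-deprived mice. In normal mice it was found in 19.4%, 10% and 4.17%. Unthinned, these shares were 45.3%, 44.2% and 7.07%, then 55.9%, 30.2% and 6.6%. The 6 choroid plexus markers summed to 187.9, 96.91 and 93.02 CPM in food-deprived mice and 351.3, 89.45 and 94.06 CPM in normal mice, so normal replicate 3 was again high. An exception was Pltp, a lipid transfer protein gene of the endothelial list, at 3084 ± 666 CPM in Ependy and 3682 ± 1120 CPM in Epith, a class of vascular cells.

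The genes that set Ependy farthest from the next class included genes of cilia and of secreted proteins beside many of unassigned role. The 20 with the highest ratio were drawn from 1404 genes at 100 CPM or more in each of the 6 mice. Ccdc33 led at 414.7 ± 36.8 CPM, 124 times its level in MO, the next class. Sntn, which encodes a protein of the ciliary tip, stood at 544.2 ± 96.9 CPM, 55 times MO, and Crygn, a gamma crystallin gene, at 461.4 ± 154 CPM, 46.1 times Tany. The next classes held only 3.34, 9.89 and 10 CPM of Ccdc33, Sntn and Crygn, so these ratios rest on few counts. Ccdc78, whose protein acts in centriole amplification, stood at 291.9 ± 92.8 CPM, and Myb, a transcription factor of multiciliated cell formation, at 147.3 ± 29.9 CPM. Secreted or surface proteins among the 20 were Rarres2, the carbonic anhydrase Car9 (145.9 ± 34.9 CPM), the collagen chain Col8a2 (181.8 ± 68.7 CPM), dermokine Dmkn (256.4 ± 14 CPM) and tetranectin Clec3b (201.2 ± 69.9 CPM). For 8 of the 20, SCO was the next class, with cells of 1 mouse only. At a minimum of 50 cells per mouse and class, 11 of the 20 stayed in the list.

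All 7 lists of the motile cilium were higher in every mouse's Ependy cells than in any mouse's Tany, Astro or MO cells. The SCO cells of 1 mouse came closer, and exceeded Ependy for microtubule inner proteins, tektins and tubulins (22380 CPM). For that list IMO, another class, also came close at 15110 ± 2620 CPM and overlapped Ependy between mice. Its tubulin gene Tuba1a averaged 4775 ± 825 CPM in Ependy and 14650 ± 2590 CPM in IMO. The 16 axonemal dynein genes in the files summed to 2970 ± 124 CPM in Ependy, against 723.8 ± 95.3 CPM in Tany and 159 ± 56.2 CPM in Astro (n = 6 each). Radial spoke, central pair and nexin link genes summed to 8879 ± 620 CPM against 1924 ± 149 CPM in Tany, with Rsph1, a radial spoke head gene, at 1556, 1474 and 1581 CPM in food-deprived mice and 1996, 1927 and 1489 CPM in normal mice. Genes of microtubule inner proteins, tektins and tubulins summed to 18110 ± 1930 CPM against 6242 ± 675 CPM in Tany. The gap was narrower for intraflagellar transport, whose genes summed to 4975 ± 399 CPM against 2448 ± 282 CPM in Tany, and centriole amplification genes summed to 1979 ± 257 CPM against 751.3 ± 162 CPM. Over the 6 mice the axonemal dynein sum ran from 2765 to 3094 CPM and the centriole amplification sum from 1647 to 2372 CPM.

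**Figure D2:**
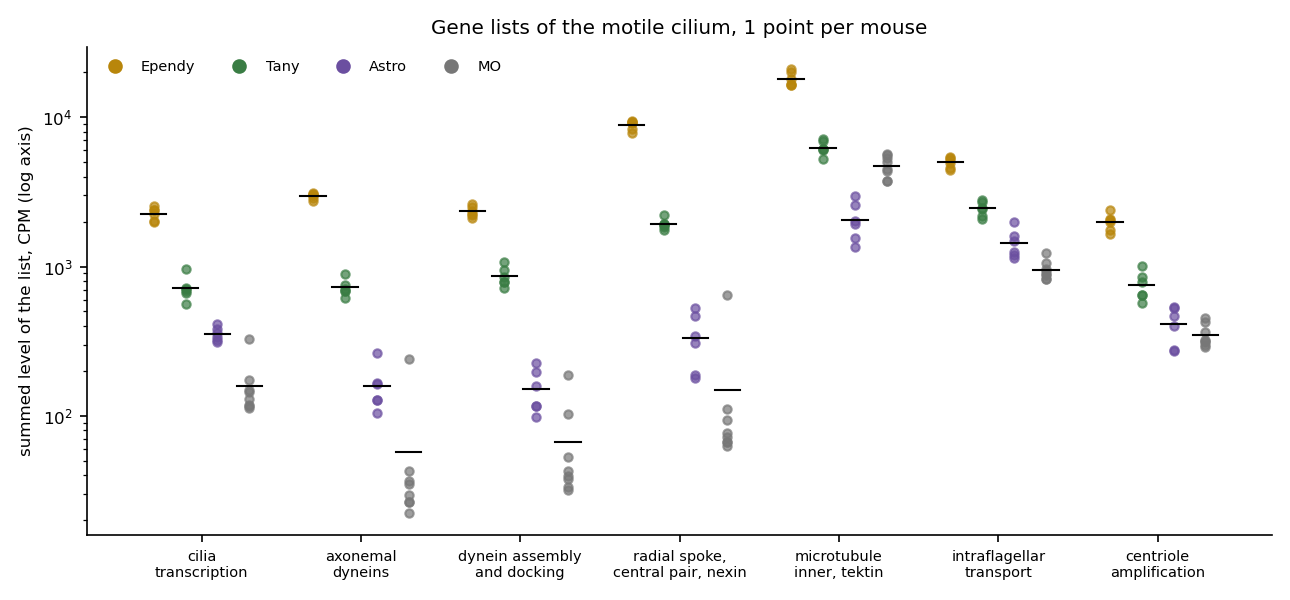
Summed level of 7 gene lists of the motile cilium (x axis) in CPM (y axis, logarithmic), with 1 point per mouse with at least 20 cells, colours for the classes and bars at the means. For each list the Ependy points lie above those of Tany, Astro and MO, for example 2970 CPM of axonemal dynein genes against 723.8 CPM in Tany.

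The promoters of cilia genes often held the letters of the X-box, the element that RFX factors bind. The core searched was GTTGCC followed after 1 to 3 bases by GG, on both strands, in the 250 bases before and 50 bases after the start of each gene (RefSeq, build GRCm38.p6). It occurred in 4.64% of the promoters of all 27025 genes. Of the 142 genes in the 7 cilia lists 117 had a promoter in the table, and 27 of them (23.1%) held the core, among them Rfx2, Tekt2, Tekt4, Ift88 and Ccno. Of the 20 leading genes 12 had one, and Ccdc153, Ccdc78 and Sntn held it. The promoters of Ccdc153 and Sntn, a marker of the class and one of its leading genes, are shown with the core in capitals, at chr9:44240427-44240726 and chr14:13670626-13670925, both on the plus strand. The core begins 152 bases before the start in Ccdc153 and 66 bases before it in Sntn.
Ccdc153: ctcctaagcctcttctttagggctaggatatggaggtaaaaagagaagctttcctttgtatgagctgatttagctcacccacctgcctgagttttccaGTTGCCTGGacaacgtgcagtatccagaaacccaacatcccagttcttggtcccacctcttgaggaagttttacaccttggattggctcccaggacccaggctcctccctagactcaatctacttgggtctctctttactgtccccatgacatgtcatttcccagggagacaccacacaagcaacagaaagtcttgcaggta
Sntn: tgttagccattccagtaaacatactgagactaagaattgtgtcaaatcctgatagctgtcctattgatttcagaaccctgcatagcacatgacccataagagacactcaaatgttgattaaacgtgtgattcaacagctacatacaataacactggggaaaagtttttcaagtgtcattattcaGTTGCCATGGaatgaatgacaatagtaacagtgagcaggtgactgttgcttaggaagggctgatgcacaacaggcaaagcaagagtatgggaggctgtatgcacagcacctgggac

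Ependy also carried genes of histamine synthesis and of fluid and metal handling. Hdc, which encodes the enzyme that makes histamine from histidine, stood at 548, 581 and 497 CPM in food-deprived mice and 690, 683 and 489 CPM in normal mice. Its mean of 581.5 ± 88.2 CPM compares with 21.37 ± 11 CPM in Tany and 230 CPM in the SCO cells of 1 mouse, while Hnmt, the enzyme that methylates histamine, stood at 4.897 ± 3.63 CPM in Ependy. Dbi, an acyl-CoA binding protein gene whose products act on benzodiazepine sites, averaged 19280 ± 1950 CPM, against 3409 ± 574 CPM in Tany and 4048 ± 1470 CPM in Astro. The metallothionein gene Mt1 averaged 12500 ± 3040 CPM, close to Astro (12890 ± 3160 CPM) and Tany (10780 ± 2180 CPM). The 19 genes of water and ion transport, which include the water channel Aqp4 (466, 367 and 627 CPM in food-deprived mice and 395, 439 and 652 CPM in normal mice), summed to 2494 ± 189 CPM, near the 2598 ± 480 CPM of Tany and below the 15640 ± 2530 CPM of Astro. Their sum was also higher in MO (9889 ± 666 CPM), Epith (3321 ± 306 CPM) and the neuron classes Glu (3638 ± 300 CPM) and GABA (2988 ± 316 CPM). It was slightly higher in OPC (2609 ± 284 CPM) and lower in the remaining classes, so this list did not set Ependy apart.

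Within a mouse the Ependy cells varied most in Cst3, Malat1, Apoe, Nnat and Cpe. Variation was measured as the variance of Pearson residuals, 1 when a gene's counts scatter as sampling alone gives, in the 3 mice with at least 50 cells. Over 4177 genes with 0.2 or more UMI per cell the median was 1.12, and the quartiles were 0.986 and 1.28. Cst3, the secreted protease inhibitor cystatin C, had the highest value at 18 (32.1 and 12.4 in food-deprived replicates 1 and 3, 18 in normal replicate 5). Malat1, a nuclear RNA, followed at 12.1, Apoe, the lipid carrier, at 7.91, the imprinted gene Nnat at 5.79 and Cpe, a peptide-processing enzyme, at 4.91. Hbegf, a growth factor gene (3.61), Nes, an intermediate filament gene of stem and glial cells (3.49), Mt1 (3.77) and Mt2 (3.55) were also among the 15 highest. Among the markers Ccdc153 stood at 1.69, Tmem212 at 1.94, Rarres2 at 3.16 and Foxj1 at 1.04, below the median of all genes. Of the 15 genes, 12 stayed among the 15 highest when each cell was thinned to 1000 UMIs, and Cst3 still led at 8.68. Rarres2 was among those that left. After thinning the markers stood at 1.23 (Ccdc153), 0.981 (Tmem212), 1.38 (Rarres2) and 0.977 (Foxj1). Cst3 and Apoe are also expressed by other glia, and the part of RNA from other cells in this variation was not tested.

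**Figure D3:**
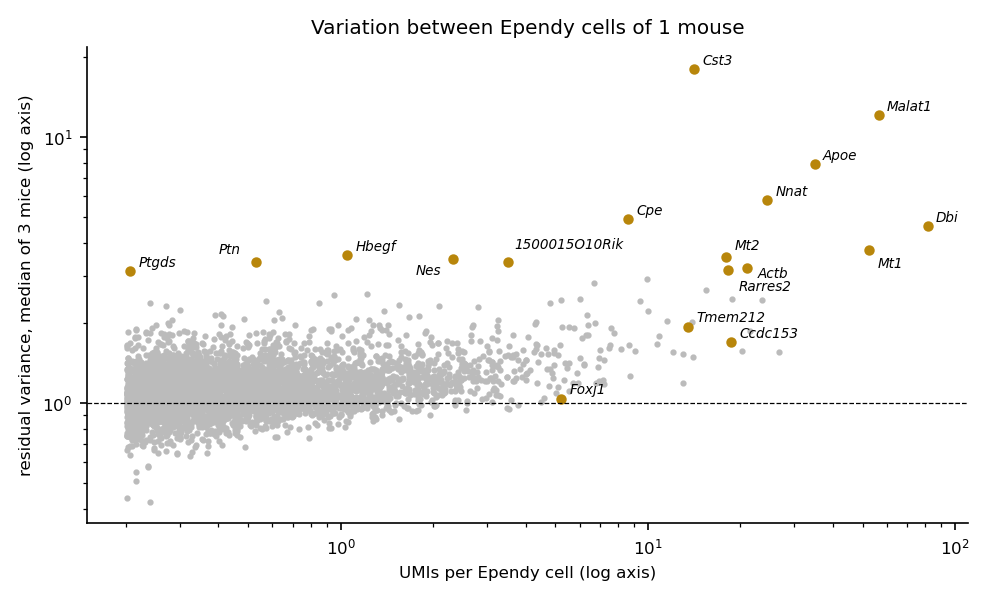
Residual variance between Ependy cells of a mouse, as the median of 3 mice (y axis, logarithmic), against UMIs per cell (x axis, logarithmic), with 1 point per gene and a dashed line at 1. The 15 most variable genes, with Cst3 at 18, and the markers Ccdc153, Tmem212 and Foxj1 are named.

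The share of Ependy among annotated cells did not separate the groups. It was 1.76%, 1.47% and 7.7% in food-deprived replicates 1 to 3, against 10.1%, 6.33%, 1.33%, 2.52% and 5.68% in normal replicates 1 to 5. The Wilson 95% intervals, which cover counting error only, ran from 5.98% to 16.5% in normal replicate 1 with 129 cells and from 6.36% to 9.28% in food-deprived replicate 3. The groups overlapped, with high and low mice in both, and the low shares all came from batches 1 and 2. The means were 3.64% ± 3.52 in food-deprived mice (SD, n = 3) and 5.19% ± 3.45 in normal mice (SD, n = 5), a difference of -1.55 percentage points (two-sided exact permutation test, p = 0.679). Within batch 1 the shares were 1.76% and 1.33%, and within batch 2 they were 1.47% and 2.52%, food-deprived first, so that the sign differed between the batches.

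Food deprivation was then compared gene by gene. With edgeR's quasi-likelihood test on the summed counts of 3 food-deprived and 3 normal mice, 0 of 5336 genes passed a Benjamini-Hochberg adjusted p of 0.05 (0.0%), and the smallest adjusted p was 0.978. An unadjusted p under 0.05 was reached by 237 genes, 123 higher (2.31%) and 114 lower (2.14%). DESeq2 called 0 genes as well, with 136 at an unadjusted p under 0.05. No gene is therefore said to have changed in this comparison, and values below are given as levels. The median log2 fold change of all genes tested was 0.00 to 2 decimals.

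The heat shock list stood lower in food-deprived mice for nearly all its members. These genes encode cytosolic and mitochondrial chaperones, which fold proteins and rise under heat and proteotoxic stress. Of 22 members 21 were tested, 20 had a negative log2 fold change against 50.2% of all genes, and the median was -0.89 against 0.00 for all genes. In 9 of the 21 every food-deprived mouse lay below every normal mouse, where 4.46% of all genes did. Of the 21, 11 were lower with an unadjusted p under 0.05, against 2.14% of all genes. The summed level was 6587, 6330 and 10970 CPM in food-deprived mice, against 17670, 11240 and 17450 CPM in normal mice, and 17190 CPM in normal replicate 3 without its large barcode. Food-deprived replicate 3 and normal replicate 4 nearly met. Without the barcode the list median was -0.76, and without normal replicate 3 it was -0.47 with 15 of 20 members negative.

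The means rest on the 3 normal mice with enough cells. The 2 normal mice left out, with 13 and 10 cells, did not share the high levels of every gene: Hsp90b1 stood at 1053 and 1071 CPM in normal replicates 1 and 2, Hsp90ab1 at 2737 and 1804 CPM, and Calr at 491 and 620 CPM. Hsp90b1 thus lay within the range of the food-deprived mice in both. So did Hsp90ab1 in normal replicate 2 and Calr in normal replicate 1. With mice of 10 or more cells the list median was -0.83, and edgeR called 0 genes.

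Among the members of the heat shock list Hsp90ab1, a cytosolic HSP90 gene, stood at 1675, 1607 and 2536 CPM in food-deprived mice and 6162, 2879 and 4370 CPM in normal mice. In these 6 mice the groups did not overlap, and the log2 fold change was -1.25 ± 0.29 (SE; edgeR, adjusted p = 0.978). Hspe1, the mitochondrial co-chaperonin, stood at 135, 184 and 279 CPM in food-deprived mice and 752, 358 and 398 CPM in normal mice. Dnajb1, an HSP40 co-chaperone, stood at 68.8, 148 and 113 CPM in food-deprived mice and 1206, 407 and 185 CPM in normal mice. Normal replicate 3 was far above the rest for Dnajb1, at 586 CPM without the large barcode, and the log2 fold change of -2.52 ± 0.58 became -1.86 without that barcode and -1.48 without the mouse. Dnaja1, another HSP40 gene, stood at 209, 163 and 235 CPM in food-deprived mice and 469, 390 and 314 CPM in normal mice, again without overlap. Hsp90aa1, the inducible HSP90 gene, overlapped between groups, with 2186, 1969 and 5100 CPM in food-deprived mice and 3442, 4013 and 9023 CPM in normal mice. Hspa1a, the inducible HSP70 gene, stood at 138, 224 and 105 CPM in food-deprived mice and 165, 163 and 50.2 CPM in normal mice, so it did not share the pattern. Hspa1a and Hspa1b are near-identical copies, and the counting could split reads between them.

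Chaperones of the endoplasmic reticulum had a smaller list median of the same sign. Of 25 members of this list, which covers folding in the secretory pathway and the unfolded protein response, 18 were tested, 14 had a negative log2 fold change, and the median was -0.44. The median was -0.28 without the large barcode and -0.27 without normal replicate 3. In 6 of the 18 the groups did not overlap with food-deprived mice lower, against 4.46% of all genes, and 5 were lower with an unadjusted p under 0.05, against 2.14%. Hsp90b1, the HSP90 of the endoplasmic reticulum, had the smallest p of all genes tested. Hsp90b1 stood at 910, 791 and 1177 CPM in food-deprived mice and 2307, 1704 and 1900 CPM in normal mice, without overlap (log2 fold change -1.08 ± 0.22 SE; edgeR, adjusted p = 0.978), and -0.77 with mice of 10 or more cells. Calr, the calcium-binding chaperone calreticulin, stood at 463, 495 and 595 CPM in food-deprived mice and 1045, 736 and 912 CPM in normal mice. Hspa5, the HSP70 of the endoplasmic reticulum known as BiP, stood at 659, 530 and 1072 CPM in food-deprived mice and 2490, 1342 and 966 CPM in normal mice, where food-deprived replicate 3 lay above normal replicate 5. Its log2 fold change of -1.12 ± 0.35 became -0.87 without the large barcode and -0.63 without normal replicate 3. Canx, calnexin, stood at 677, 576 and 627 CPM in food-deprived mice and 532, 683 and 517 CPM in normal mice, with no such difference.

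**Figure D4:**
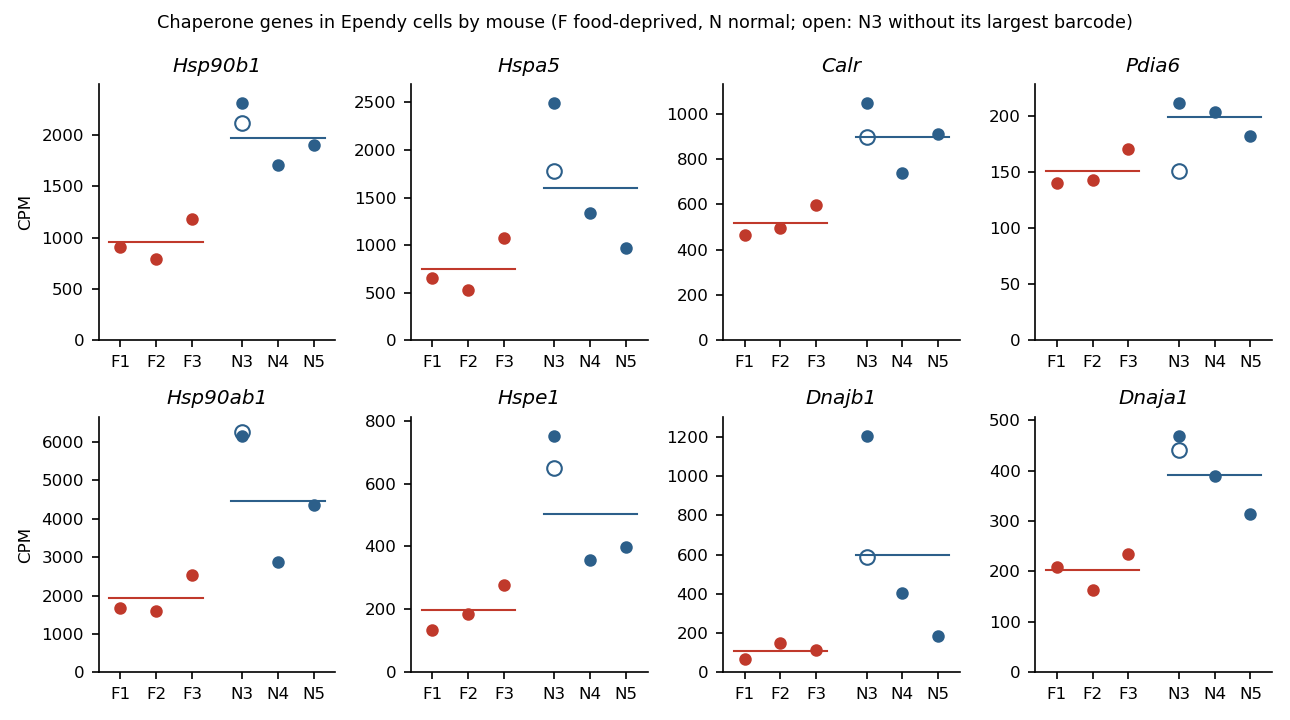
Level of 8 chaperone genes in Ependy cells (y axis, CPM from 0) in each food-deprived mouse (F1 to F3, red) and normal mouse (N3 to N5, blue), with lines at the group means; the open circle is normal replicate 3 without its largest barcode. Hsp90b1 lies between 791 and 1177 CPM in food-deprived mice and between 1704 and 2307 CPM in normal mice, while Hspa5 overlaps between the groups.

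Some promoters of these chaperones held the letters of known stress elements. The endoplasmic reticulum stress element, searched on both strands as CCAAT, 9 bases and CCACG, was found in 0.137% of all promoters and in 10 of the 23 list genes with a promoter in the table (43.5%), including Hspa5, Hsp90b1, Calr, Pdia6 and Canx. Canx held the element without a lower level, as given above. The heat shock element, searched as 3 alternating blocks of GAA and TTC with 2 bases between blocks, was found in 0.662% of all promoters and in 4 of 18 heat shock genes with one (22.2%), namely Hspe1, Hspd1, Hsph1 and Chordc1. Hspe1 and Hspd1 are neighbours transcribed away from each other, and their windows share the same element. Promoters of 3 genes that hold an element and were described above are shown with the elements in capitals, at chr2:34771840-34772139 (plus strand) for Hspa5, chr10:86705395-86705694 (minus strand) for Hsp90b1 and chr1:55087898-55088197 (plus strand) for Hspe1. Hsp90b1 holds 2 copies in opposite directions, and in Hspe1 2 matches overlap.
Hspa5: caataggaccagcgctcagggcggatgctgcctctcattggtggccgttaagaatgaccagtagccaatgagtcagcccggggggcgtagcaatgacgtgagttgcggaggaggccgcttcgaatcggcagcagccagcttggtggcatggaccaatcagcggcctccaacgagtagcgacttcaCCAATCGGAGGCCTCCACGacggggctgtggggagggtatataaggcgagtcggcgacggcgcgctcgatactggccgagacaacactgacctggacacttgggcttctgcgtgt
Hsp90b1: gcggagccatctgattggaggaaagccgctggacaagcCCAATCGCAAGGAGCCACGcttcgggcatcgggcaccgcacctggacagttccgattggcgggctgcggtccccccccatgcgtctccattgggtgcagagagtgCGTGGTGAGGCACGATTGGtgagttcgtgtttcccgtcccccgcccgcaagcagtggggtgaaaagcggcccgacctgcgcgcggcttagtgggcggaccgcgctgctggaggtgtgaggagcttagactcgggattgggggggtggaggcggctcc
Hspe1: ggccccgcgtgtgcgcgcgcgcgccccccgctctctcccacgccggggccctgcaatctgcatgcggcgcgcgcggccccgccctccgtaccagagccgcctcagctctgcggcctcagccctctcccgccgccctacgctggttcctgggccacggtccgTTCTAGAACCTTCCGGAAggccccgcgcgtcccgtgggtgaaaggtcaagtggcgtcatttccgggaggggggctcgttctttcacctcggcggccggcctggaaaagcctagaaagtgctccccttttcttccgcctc

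Both chaperone lists were also set beside other classes of the same mice. In Tany the heat shock list summed to 5734, 5938 and 7146 CPM in food-deprived mice and 7087, 6596 and 8711 CPM in normal mice. In MO it summed to 8958, 9191 and 11830 CPM in food-deprived mice and 12830, 11340 and 13060 CPM in normal mice. In Astro it summed to 4040, 3951 and 6006 CPM in food-deprived mice and 5159, 3965 and 7425 CPM in normal mice. The groups overlapped for this list in these 3 classes. The endoplasmic reticulum list summed to 5099, 4646 and 6159 CPM in food-deprived Ependy cells and 9725, 7607 and 7042 CPM in normal ones. In Tany it summed to 4898, 5062 and 6466 CPM in food-deprived mice and 6606, 6779 and 7010 CPM in normal mice. For this list the groups did not overlap in Ependy or in Tany, and they overlapped in Astro and MO. Immediate early genes, which respond to stimulation and to cell dissociation, summed to 28090, 28090 and 19510 CPM in food-deprived Ependy cells and 32580, 23700 and 22930 CPM in normal ones, and their list median was 0.01. The part of tissue handling in the chaperone levels was not tested.

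**Figure D5:**
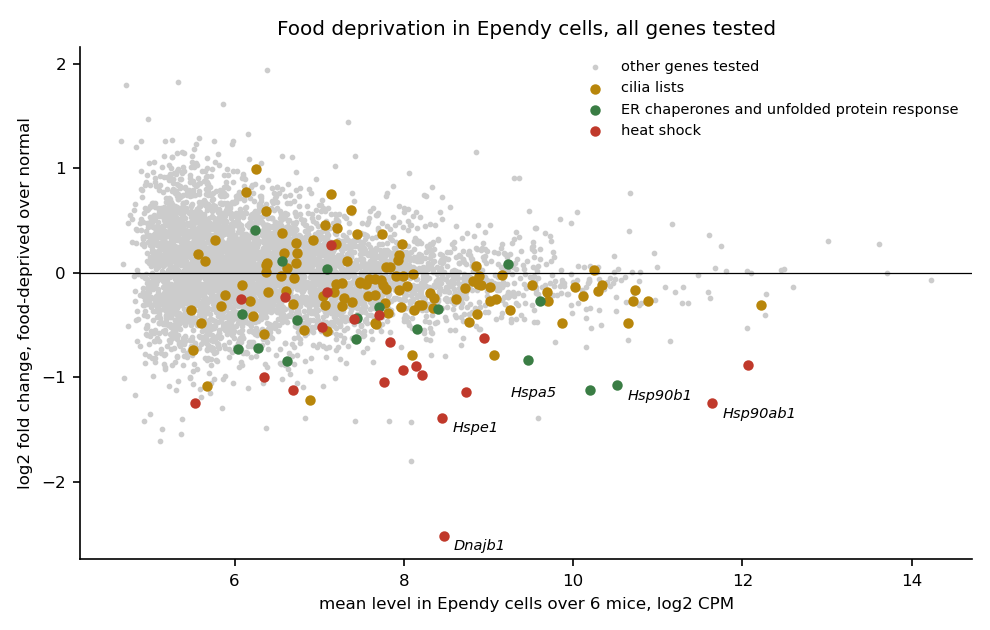
Log2 fold change of food-deprived over normal mice in Ependy cells (y axis) against mean level in log2 CPM (x axis) for the 5336 genes tested, with the heat shock, endoplasmic reticulum chaperone and cilia lists in colour. Heat shock genes centre on -0.89, while the medians of the cilia lists lie between -0.31 and 0.05.

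Batch was then taken into account. The labels put food-deprived replicate 1 and normal replicate 3 in batch 1 and food-deprived replicate 2 and normal replicate 4 in batch 2. With batch as replicate block, 0 genes passed and 353 had an unadjusted p under 0.05. With the block and without the large barcode, 35 of 4859 genes passed (0.72%), 25 of them lower (0.515%). Of those 25, 10 belong to the heat shock list and 2 are Hsp90b1 and Hspa5. Hsp90ab1 stood at -1.39 (edgeR, adjusted p = 2.85e-07), Hspe1 at -1.68 (adjusted p = 5.76e-07), Hspa5 at -1.40 (adjusted p = 2.2e-07) and Hsp90b1 at -1.17 (adjusted p = 2.57e-05). This fit was chosen after seeing the barcode, and its contrast rests on the 2 batches that hold both groups, with normal replicate 3 in one of them. The fit on the libraries with little Gapdh, planned with the batch block, called 46 of 4920 genes (0.935%), 22 higher and 24 lower, and 9 of the 24 were heat shock genes. It held only 2 food-deprived and 2 normal mice, those of batches 1 and 2, and it kept the large barcode. The fits with the block have 1 residual degree of freedom. DESeq2 with the block, on all cells and libraries, called 0 genes, and it was not run on the subsets that gave 35 and 46.

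Several of the calls under the block were genes in which normal replicate 3 alone was extreme. Wls and Ptn were called lower and Sparcl1, Nr2f1 and Sepp1 higher in food-deprived mice. Nr2f1, a nuclear receptor gene of regional identity, stood at 172, 214 and 206 CPM in food-deprived mice and 16.8, 89.4 and 182 CPM in normal mice without the barcode. Wls stood at 185, 96.9 and 84.9 CPM in food-deprived mice and 849, 102 and 125 CPM in normal mice. Without normal replicate 3 the groups overlapped for both genes. For these genes the feeding state and the differences of 1 mouse cannot be told apart.

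The genes of smallest p without the block were, on the lower side, Hsp90b1, Dnajb1, Hsp90ab1, Hspe1, Dnaja1, Calr, Epc2, Cct7, Mettl3, Wdyhv1, Llgl1 and Hnrnpa2b1. Cct7, a subunit of the cytosolic chaperonin for actin and tubulin, stood at 196, 189 and 210 CPM in food-deprived mice and 445, 317 and 320 CPM in normal mice, without overlap (log2 fold change -0.90 ± 0.24 SE; edgeR, adjusted p = 0.978). On the higher side they were Dpysl2, 2810008D09Rik, P2rx6, 1810010H24Rik, Ppme1, Ep300, Hepacam, Gm4285, Nfia, Agxt2l1, Lrp2 and Ppfibp2. Dpysl2, a microtubule-binding protein gene, stood at 275, 260 and 174 CPM in food-deprived mice and 83.9, 130 and 107 CPM in normal mice. Hepacam, an adhesion molecule of glia, stood at 421, 505 and 324 CPM in food-deprived mice and 187, 264 and 238 CPM in normal mice. Nfia, a transcription factor of glial identity, stood at 365, 383 and 417 CPM in food-deprived mice and 180, 240 and 260 CPM in normal mice. Astrocyte markers summed to 328.1, 423.3 and 165.8 CPM in food-deprived Ependy cells and 139.9, 386.2 and 137.9 CPM in normal ones, which overlapped. The 2 astrocyte markers tested had a positive log2 fold change (median 0.56), as had the 4 myelin markers tested (median 0.33), and their part in the levels of Hepacam and Nfia was not tested. Lrp2, the endocytic receptor megalin, stood at 122, 61.2 and 84.9 CPM in food-deprived mice and 21.8, 32.5 and 56.4 CPM in normal mice. All 24 named genes separated the groups without overlap, which their choice by p favours. A gap of this kind was found in 4.46% of all genes on the lower side and 5.79% on the higher side.

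No cilia gene passed the test with food deprivation. Median log2 fold changes were 0.05 for axonemal dyneins (15 tested, 6 negative), -0.06 for cilia transcription (10 tested, 5 negative), -0.10 for intraflagellar transport (24 tested, 19 negative), -0.17 for radial spokes, central pair and nexin links (21 tested, 16 negative) and -0.17 for dynein assembly and docking (14 tested, 10 negative). For microtubule inner proteins and tektins it was -0.20, with 20 of 22 negative, against 50.2% of all genes. Of the 22, 3 were lower with an unadjusted p under 0.05, against 2.14% of all genes. In 4 of these 22 every food-deprived mouse lay below every normal mouse, against 4.46% of all genes. This list summed to 16480, 16710 and 16460 CPM in food-deprived mice and 20940, 19930 and 18100 CPM in normal mice, without overlap. In Tany it summed to 6018, 6105 and 5231 CPM in food-deprived mice and 7089, 6912 and 6099 CPM in normal mice. In Astro the sums were 2010, 1349 and 1562 CPM against 2965, 1930 and 2567 CPM, and in MO 5332, 5582 and 3717 CPM against 4973, 4468 and 4380 CPM. The groups overlapped in each of these other classes. In Tany only food-deprived replicate 2 (6105 CPM) lay above a normal mouse, replicate 5 (6099 CPM). In Astro only food-deprived replicate 1 (2010 CPM) lay above a normal mouse, replicate 4 (1930 CPM). Lower sums of this list were thus not particular to Ependy. In Ependy the list median was -0.15 without normal replicate 3, with 16 of 22 negative. Centriole amplification had a median of -0.31 with 4 of 5 tested members negative, and -0.07 without normal replicate 3. Among the tubulins Tubb4b, a tubulin of axonemes, stood at 1410, 1255 and 1432 CPM in food-deprived mice and 1784, 1704 and 2088 CPM in normal mice. Foxj1 stood at 1416, 1260 and 1052 CPM in food-deprived mice and 1184, 1325 and 1057 CPM in normal mice. Rarres2 stood at 3535, 3382 and 3692 CPM in food-deprived mice and 5552, 4602 and 4756 CPM in normal replicates 3 to 5, without overlap (log2 fold change -0.53 ± 0.20 SE; edgeR, adjusted p = 0.978). Ccdc153 stood at 4258, 4697 and 4372 CPM in food-deprived mice and 4265, 4554 and 4204 CPM in normal mice.

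Lists of metabolic and hormonal responses to fasting had medians between -0.20 and 0.24. Glucocorticoid-induced genes had a median of 0.09 over 10 tested members, which was 0.37 without the large barcode and 0.40 without normal replicate 3, with 7 of 9 members positive. Over the alternatives it ran from 0.04 to 0.60. Tsc22d3, which encodes the glucocorticoid-induced leucine zipper, stood at 302, 974 and 647 CPM in food-deprived mice and 168, 533 and 150 CPM in normal mice, overlapping through normal replicate 4 (log2 fold change 1.16 ± 0.49 SE; edgeR, adjusted p = 0.978). FoxO and low-insulin genes had a median of 0.24 over 9 members. Foxo1 itself stood at 175, 133 and 146 CPM in food-deprived mice and 121, 93.5 and 78.4 CPM in normal mice, without overlap (log2 fold change 0.60 ± 0.26 SE; edgeR, adjusted p = 0.978). Genes of fatty acid and ketone use had a median of -0.20 over 11 members, with Oxct1, which feeds ketone bodies into the citric acid cycle, at 609, 576 and 586 CPM in food-deprived mice and 681, 655 and 806 CPM in normal mice. Medians were 0.14 for metal and redox genes, -0.09 for secreted proteins, -0.04 for water and ion transport, -0.02 for junctions and polarity, -0.17 for monoamine handling, -0.10 for oxidative phosphorylation, -0.08 for cholesterol synthesis with 2 tested and -0.05 for thyroid and retinoid genes with 3 tested.

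The response to food deprivation was set against that of the neighbouring classes in the same mice. Against Tany, 2 of 7088 genes passed (0.0282%), both with a lower Ependy response. For Hspe1 the difference of the responses was -1.60 ± 0.29 on the log2 scale (SE, n = 6 mice; edgeR, adjusted p = 0.0243). In Tany Hspe1 stood at 176, 264 and 247 CPM in food-deprived mice and 249, 158 and 184 CPM in normal mice, which overlapped, while the Ependy values given above did not. For Scg2, a secretogranin gene of secretory cells, it was -2.75 ± 0.52 (adjusted p = 0.0243). Scg2 was low in Ependy, at 31.8, 20.4 and 36.4 CPM in food-deprived mice and 37.3, 32.5 and 81.5 CPM in normal mice. The difference came with Tany levels of 205, 19.5 and 269 CPM in food-deprived mice and 43.5, 25 and 55.3 CPM in normal mice, where food-deprived replicate 2 was low. Both calls stayed without the large barcode (adjusted p = 0.0134 and 0.00277), and DESeq2 called neither. Of the 22 heat shock genes tested 20 had a lower Ependy response (median -0.77, against 0.01 for all genes), and of 19 endoplasmic reticulum genes 12 (median -0.29). Immediate early genes also had a lower Ependy response here, in 18 of 20 (median -0.33).

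Against Astro, 0 of 6965 genes passed in edgeR (0.0%), with 405 at an unadjusted p under 0.05, and DESeq2 called 0. Heat shock genes had a lower Ependy response in 20 of 22 (median -0.96, against 0.02), and endoplasmic reticulum genes in 15 of 18 (median -0.45). Immediate early genes had a lower Ependy response in 2 of 20 (median 0.40), opposite in sign to their median against Tany. The smallest p was that of 1700016K19Rik (difference 5.57 ± 1.10; edgeR, adjusted p = 0.263).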

How the data were processed

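The authors deposited 1 table per library of raw UMI counts per gene and barcode, a merged table of counts of annotated cells, and 1 cluster name per cell, per the file headers. The build was mm9, per the submitters' processing notes; the aligner and counter were not given in the sources used here. Cells were joined to libraries by batch, feeding state and barcode, and counts of all 14276 joined cells equalled the merged table. The 161 others, 1 of them Ependy, share a barcode between libraries and were left out. No doublet caller was run. Of the Ependy barcodes, 13 lack 1 base and match a longer barcode of the same library, so they may be 1 bead counted as 2.

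Counts were summed per mouse and class, with libraries of a mouse pooled, and mice with at least 20 cells were used. The minimum was 1 cell in the fits on libraries with little Gapdh and 10 cells on those rich in Gapdh. Food-deprived was compared with normal by edgeR 4.0.16 (quasi-likelihood, TMM, filterByExpr; R 4.3.3), with Benjamini-Hochberg adjustment over all genes tested at 0.05. Standard errors follow from the F statistic. Class by status terms used the mouse as block. The script was tested on simulated data for the fits without the batch block. Fits with that block were not simulated. CPM use plain totals. The mouse is the replicate; no label says that the groups were processed side by side except in batches 1 and 2. With batch taken as the pairing, deviations of log2 (CPM + 1) from the group means correlated at 0.32 in batch 1 and 0.1 in batch 2. They correlated at 0.41 between food-deprived replicate 3 and normal replicate 5 of different batches. Deviations from the mean of a group are tied to each other, so this value depends on the other pairs. These correlations thus cannot decide whether batch pairs the mice. Alternatives were DESeq2 1.42.0, other filters, scalings, cell minimums and subsets of mice and libraries.

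The members and gene lists were chosen with earlier results of these data known. Genes named were the 20 leading Ependy genes, up to 6 members per list of highest level, the 12 of smallest p in each direction, the 15 most variable and the 10 of smallest p per class difference, of which the text gives a part. Hdc, Hnmt, Dbi, Pltp, Rax and the genes of normal replicate 3 were named after their values were seen. Promoters are RefSeq's; positions of GRCm38.p6 are not those of mm9.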

Additional observations from a re-analysis of the deposited data

Results flagged for a closer look

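Hspe1 and Scg2 differed between Ependy and Tany in their response to food deprivation, by the test of the difference itself. The Ependy response minus the Tany response was -1.60 on the log2 scale for Hspe1 and -2.75 for Scg2 (edgeR quasi-likelihood, adjusted p = 0.0243 each, n = 6 mice). Hspe1 was lower in all 3 food-deprived mice than in all 3 normal mice in Ependy. Scg2 rests on high Tany levels in food-deprived replicates 1 and 3, and food-deprived replicate 2 did not share them. Among the 5 normal mice, no share of Ependy cells, median of UMIs or genes per cell, or share of the largest barcode lay beyond Dixon's limit.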

How the results depend on the processing

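The count of 0 genes with food deprivation was the same with DESeq2, plain library totals, batch as replicate block, batches 1 and 2 alone, libraries rich in Gapdh, a minimum of 10 cells, without the large barcode, with cells capped at 5000 UMIs, without paired barcodes and with each mouse left out (0 to 0). It was 21 with no filter on low counts, 8 with at least 50 cells per mouse (2 food-deprived mice and 1 normal mouse), 46 in libraries with little Gapdh with the replicate block, and 35 without the large barcode with the replicate block. Against Tany the count of 2 became 0 in DESeq2, 13 with no filter, 9 with at least 50 cells, and 1 (without food-deprived replicate 1) to 9 (without normal replicate 3) with 1 mouse left out. Against Astro the count of 0 became 2 with no filter, 14 in libraries with little Gapdh, 1 with cells capped at 5000 UMIs, and 0 to 18 (without normal replicate 4) with 1 mouse left out, and no fit was made at 50 cells. The difference in share of -1.55 points became 0.623 of all barcodes and 0.015 in libraries with little Gapdh, and -3.58 (without food-deprived replicate 3) to -0.322 (without normal replicate 1) with 1 mouse left out. Of the leading 20 genes 11 stayed at 50 cells. The cause of these changes was not tested. The heat shock median kept its sign, from -1.07 to -0.44, and so did that of endoplasmic reticulum genes, from -0.62 to -0.15, over 21 alternatives. With 6 mice and a median of 2444 UMIs per cell, genes of a few UMIs per mouse could not be judged.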
